A study of Mus musculus with 11 samples.

Results

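The genes described here are 10 enzymes and enzyme subunits that break down the branched-chain amino acids leucine, isoleucine and valine: Bcat2, Bckdha, Bckdhb, Dbt, Ivd, Mccc1, Hibadh, Pcca, Pccb and Mut. They were taken by gene symbol from a list of the pathway that was drawn up with earlier results of these data known, and all 10 were found among the 15453 genes measured. Their expression was measured in epididymal white adipose tissue (eWAT), the fat depot beside the epididymis, of male C57BL/6J mice (C57BL/6 in the sample labels) by serial analysis of gene expression (SAGE), which counts 1 short tag per transcript. There were 6 wildtype (WT) mice and 5 mice that inherited an inactivated Mest allele from their father (pKO). Both genotypes were littermates from WT females and heterozygous males. All were 16 weeks old, and a high fat diet had begun when they were 8 weeks old. The inactivated allele lacks exon 3 of Mest in every cell, because EIIa-cre removed it in the germline, and Mest is an imprinted gene that is expressed from the paternal allele. Each library came from 1 mouse, and the mice were selected from a larger feeding cohort. The paper reports that the WT mice profiled had a significantly higher ratio of fat to lean mass than the pKO mice. Genotype and adiposity therefore cannot be told apart in the differences below.

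Breakdown starts with the removal of the amino group by a transaminase, which in most tissues outside the brain is the mitochondrial enzyme encoded by Bcat2. The resulting ketoacids are then committed by the branched-chain ketoacid dehydrogenase complex, a large mitochondrial assembly that a kinase switches off and a phosphatase switches on. After that step the routes part: leucine gives acetyl-CoA and acetoacetate, valine gives propionyl-CoA, and isoleucine gives both acetyl-CoA and propionyl-CoA. Propionyl-CoA enters the citric acid cycle as succinyl-CoA. Adipocytes are known to use this pathway as a source of acetyl-CoA for fatty acid synthesis, and its genes are known to be induced during adipocyte differentiation.

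The measured item for each gene is a tag next to its most 3' NlaIII site, CATG. The tags of the 5 genes that passed the unadjusted test below, and of Bcat1, the cytosolic partner of Bcat2, are shown because the differences rest on counts of such sequences. They were read from the GENCODE M21 transcripts on GRCm38 at 27 bases, with the NlaIII site in capitals, and are predictions from the annotation rather than sequences in the files.
Bcat2: CATGcaatttggacgccacctcaaatt
Bckdhb: CATGactataaataccgggtggtgttg
Mccc1: CATGcacctttagtggaatttgaggag
Pcca: CATGgtagcagaaggtcaggaaatctg
Mut: CATGattattgttttctattttaaaga
Bcat1: CATGccatcacaaggctccacttcctt

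The Bcat2 tag lies in the 3' UTR on the plus strand of chromosome 7, from 45589515 to 45589541. That of Bckdhb is in the 3' UTR on the plus strand of chromosome 9, from 84124184 to 84124210. Mut has its tag in the 3' UTR on the plus strand of chromosome 17, from 40961877 to 40961903. The Bcat1 tag is in the 3' UTR on the minus strand of chromosome 6, from 144994160 to 144994186. Mccc1 and Pcca differ from the other 8 genes in having their tag in coding sequence. The Mccc1 tag is on the minus strand of chromosome 3, from 35960031 to 35960057, and the Pcca tag crosses an exon junction on the plus strand of chromosome 14, between 122876901 and 122887069. The paper aligned tags to a reference genome, and whether a tag split by an intron could be counted is not given. The predicted Pcca tag may therefore not be the one that was counted. All 10 predicted tags start 56 to 540 bases from the transcript end, and none was found in the transcripts of another gene. A gene on the opposite strand overlaps the tag of Bckdha (B3gnt8) and of Mccc1 (Gm15952). For Pcca, Ggact on the opposite strand overlaps the stretch between the ends of the tag, intron included. Whether the counting used strand is not given in the sources used here. The tag is present in 1 of 7 annotated coding transcripts of Bcat1, 1 of 4 of Pcca, 2 of 4 of Pccb, 4 of 5 of Bcat2, and 1 of 2 each of Dbt and Mut. For the other 5 genes every annotated coding transcript holds it.

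The deposited values, called normalised tags here, are tag counts that had been divided by 1 size factor per library, and 1 tag was worth 0.836 to 1.19 of them. WT libraries held 9659740 to 14825727 tags, and pKO libraries held 11320342 to 14626803. Mest, the targeted gene, was at 20756 to 27897 normalised tags in WT mice. Its values in pKO replicates 1 to 5 were 1479, 793, 1978, 2275 and 1792, so the genotypes were far apart and followed their labels. The Mest tag lies outside exon 3, in the 3' UTR, so it can count transcript from the locus that lacks the deleted exon. Copg2, a gene on the opposite strand, overlaps this tag, and whether the counting used strand is not given. The source of the tags left in pKO mice was not tested. Adipocyte markers were abundant in every library, with 65204 normalised tags of Adipoq in WT and 74798 in pKO mice on average. Of 7 genes of epididymal epithelium 5 were not among the genes measured, and Adam7 and Rnase10 averaged at most 10.6 normalised tags in either genotype. Their highest values in a single mouse were 43.8, for Adam7 in pKO replicate 1, and 10.6, for Rnase10 in WT replicate 5.

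Differences are given as pKO minus WT on the log2(value + 1) scale, from limma fitted over all 15453 genes. A gene was called at an unadjusted p of at most 0.05 with a mean of at least 50 normalised tags in 1 genotype. Of the 10 breakdown genes, 5 were higher in pKO mice and 0 were lower by this rule. The 5 were Bcat2 (mitochondrial transaminase), Bckdhb (a subunit of the dehydrogenase complex), Mccc1 (leucine arm), Pcca and Mut (propionyl-CoA route). The background was 480 of 9906 genes higher (4.85%) and 572 lower (5.77%). The difference was positive in 9 of 10 breakdown genes, Hibadh being the exception, and in 51.3% of the 9906 genes. The median difference was 0.34 in the breakdown genes against 0.01 over the 9906 genes. After Benjamini-Hochberg adjustment over all genes 0 of the 10 reached 0.1, where 5 of 9906 genes did (0.0505%), and their adjusted p-values ran from 0.40 to 0.93. In no breakdown gene were the WT and pKO ranges apart, as they were in 1.43% of the 9906 genes. Mice here are separate animals, and in such tissue samples more cells of a type and more RNA per cell cannot be told apart.

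The count of 5 was sensitive to the mice and to the variance model. It was 2 without WT replicate 1, WT replicate 4 or pKO replicate 3, and 3 without WT replicate 3, WT replicate 6, pKO replicate 1 or pKO replicate 4. It was also 2 when the variance prior did not follow the mean, and 4 with edgeR on the recovered tags. Bcat2 and Mccc1 had an unadjusted p of at most 0.05 in all 23 fits run, Bckdhb in 15, Mut in 14 and Pcca in 11. Scaling by total tags changed the split over all genes to 330 higher and 726 lower, and 4 of the breakdown genes were then called higher and 0 lower.

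**Figure D1:**
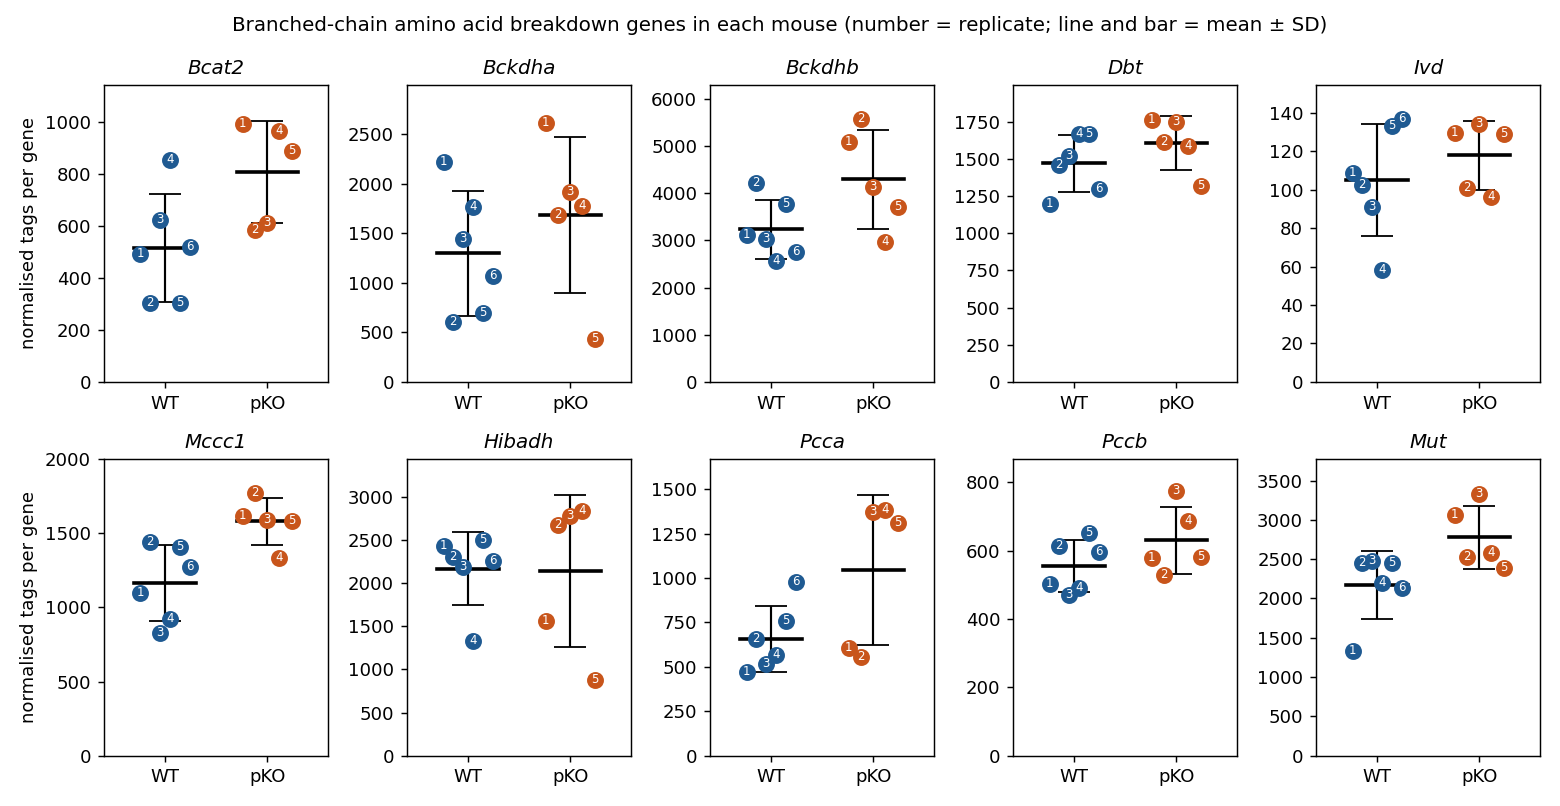
Normalised tags (vertical axes, linear, from 0) of the 10 breakdown genes in each WT and pKO mouse; points carry the replicate number, and lines and bars give the mean ± SD of 6 WT or 5 pKO mice. For Mccc1, 4 of 5 pKO mice lie above every WT mouse, whereas the pKO mice of Pcca split into 3 high and 2 low animals.

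Bcat2, the mitochondrial branched-chain aminotransferase, ranged in WT mice from 302 to 854 normalised tags with a median of 506. In pKO replicates 1 to 5 it was at 992, 584, 613, 966 and 887. All 5 pKO mice were above the WT median and 3 were above every WT mouse. The WT mean was 515 ± 208 (SD, n = 6) and the pKO mean 808 ± 196 (SD, n = 5), which is 1.57-fold. The log2 difference was 0.71 (SE 0.26; limma p = 0.018, adjusted p = 0.43; exact permutation p = 0.043). Its 95% confidence interval ran from 0.14 to 1.28. WT replicates 2 and 5, at 302 and 304, were the 2 lowest of all 11 mice.

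The ketoacid dehydrogenase complex contributed 3 genes, with higher values in pKO mice passing the test in 1 of them. Bckdhb, the beta subunit of its E1 component, had values of 2569 to 4212 (median 3075) in WT mice. The pKO mice were at 5088, 5577, 4135, 2960 and 3710. Replicates 1 and 2 exceeded every WT mouse, and the other 3 lay within the WT range. Mean levels were 3242 ± 628 (SD, n = 6) and 4294 ± 1051 (SD, n = 5), a log2 difference of 0.39 (SE 0.18; limma p = 0.048, adjusted p = 0.52; exact permutation p = 0.084). Without any 1 of WT replicates 1, 3, 4 and 6 or pKO replicates 1, 2 and 3 it no longer passed the unadjusted threshold, and the lowest log2 difference, 0.29, was without pKO replicate 2.

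Bckdha encodes the alpha subunit that pairs with Bckdhb in E1, and lies on the minus strand of chromosome 7 from 25629946 to 25658981. It spanned 602 to 2216 normalised tags (median 1256) in WT mice. In pKO mice it was at 2613, 1687, 1911, 1769 and 433. The pKO group thus held both the highest and the lowest of the 11 mice, and its highest value was 6.04 times its lowest. The log2 difference was 0.32 (SE 0.44; limma p = 0.48, adjusted p = 0.86; exact permutation p = 0.56), with a 95% confidence interval from -0.63 to 1.26. Without pKO replicate 5 it became 0.75 and passed the unadjusted threshold (adjusted p = 0.53 from limma). Dbt, the E2 core of the complex, on chromosome 3 from 116513070 to 116549981, was the steadiest of the 3. It ranged from 1199 to 1668 in WT mice and was at 1764, 1610.2, 1751, 1587 and 1317 in pKO mice. Its log2 difference was 0.13 (SE 0.13; limma p = 0.32, adjusted p = 0.78; exact permutation p = 0.25), and the interval of -0.14 to 0.41 leaves room for a difference of up to 1.32-fold.

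Ivd and Mccc1 act in succession on the leucine route. Ivd, isovaleryl-CoA dehydrogenase, lies on chromosome 2 from 118861954 to 118882909 and was the least abundant of the 10 genes. It had 58.3 to 136 normalised tags (median 106) in WT and 130, 101, 134, 96.2 and 129 in pKO mice. The pKO values fell inside the WT range, and the log2 difference was 0.21 (SE 0.21; limma p = 0.35, adjusted p = 0.80; exact permutation p = 0.43). Mccc1, the biotin-carrying subunit of methylcrotonyl-CoA carboxylase, ran from 825 to 1443 (median 1184) in WT mice. The pKO mice were at 1618, 1773, 1591, 1331 and 1585. Only replicate 4 of the pKO mice lay within the WT range, and every pKO mouse was above the WT median. The means of 1161 ± 256 (SD, n = 6) and 1580 ± 159 (SD, n = 5) gave a log2 difference of 0.47 (SE 0.16; limma p = 0.011, adjusted p = 0.40; exact permutation p = 0.017). Leaving out any 1 mouse kept the log2 difference between 0.38 and 0.54.

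Hibadh, 3-hydroxyisobutyrate dehydrogenase of the valine route, was the exception in direction. It lies on the minus strand of chromosome 6 from 52546228 to 52640389. WT mice had 1332 to 2506 normalised tags with a median of 2277. The pKO mice were at 1557, 2670, 2777, 2831 and 875. Replicates 2, 3 and 4 were above every WT mouse and replicate 5 was below every WT mouse, so the pKO group lay on both sides of the WT range. The log2 difference was -0.12 (SE 0.29; limma p = 0.68, adjusted p = 0.93; exact permutation p = 0.74), and without pKO replicate 5 it was 0.17 and still not called.

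Propionyl-CoA from valine and isoleucine is carboxylated by Pcca and Pccb, the alpha and beta subunits of propionyl-CoA carboxylase, and the product is rearranged to succinyl-CoA by Mut, methylmalonyl-CoA mutase. Pcca had 470.5 to 976 normalised tags (median 612) in WT mice. The values in pKO replicates 1 to 5 were 609, 558, 1371, 1386 and 1309. Replicates 3, 4 and 5 were each above every WT mouse, and replicates 1 and 2 were below the WT median. With means of 658 ± 187 (SD, n = 6) and 1046 ± 424 (SD, n = 5), or 1.59-fold, the log2 difference was 0.60 (SE 0.28; limma p = 0.048, adjusted p = 0.52; exact permutation p = 0.095). It missed the unadjusted threshold without any 1 of WT replicates 1, 2, 3 and 4 or pKO replicates 3, 4 and 5, where the log2 difference was 0.47 to 0.61.

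Pccb, on the minus strand of chromosome 9 from 100982032 to 101034898, moved over a narrower range than its partner. It had 469 to 651 normalised tags (median 549) in WT and 579, 527, 774, 685 and 582 in pKO mice. Replicates 3 and 4 of the pKO mice, also the 2 highest for Pcca, were above every WT mouse. The log2 difference was 0.18 (SE 0.14; limma p = 0.21, adjusted p = 0.70; exact permutation p = 0.19). For Mut the WT values were 1335 to 2472 (median 2322) and the pKO values 3056, 2525, 3334, 2576 and 2389. All pKO mice but replicate 5 lay above every WT mouse, and WT replicate 1 lay far below the other WT mice. The log2 difference was 0.37 (SE 0.17; limma p = 0.045, adjusted p = 0.52; exact permutation p = 0.035). Without WT replicate 1 it was 0.24 and missed the unadjusted threshold, as it did without any 1 of WT replicates 4 and 6 or pKO replicates 1, 3 and 4, where it was 0.30 to 0.40.

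Because SAGE counts 1 tag per transcript, levels of different genes need no correction for length. The order below is an order of tags. For Bcat2, Dbt, Mut, Pcca and Pccb the predicted tag is not in every annotated coding transcript. G and C bases made up 18.5% to 63.0% of the predicted tags, and an effect of this on the counts was not tested. Bckdhb was the most abundant breakdown gene in WT mice, at 3242 normalised tags, above 96.3% of all genes. Mut (2173) and Hibadh (2169) followed, then Dbt (1469), Bckdha (1296), Mccc1 (1161), Pcca (658), Pccb (553) and Bcat2 (515). Ivd, at 105, was above 48.3% of all genes. The lowest WT value of Bckdhb was above the highest of Mut and of Hibadh, and every WT value of Ivd was below those of Bcat2. All other neighbours in this order overlapped in their WT ranges.

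A wider list of the pathway held 24 further genes that are reported, 21 of which had a mean of at least 50 normalised tags in 1 genotype. By the same unadjusted rule 3 were higher in pKO mice, 2 were lower, and 0 passed the adjusted threshold. Over the 9906 genes 4.85% were called higher and 5.77% lower. Their median log2 difference was -0.02. Besides Ivd, 2 acyl-CoA dehydrogenases follow the ketoacid complex, and both were called higher. Acadsb, which acts on the isoleucine route, had a WT mean of 275 ± 58.1 (SD, n = 6) and a pKO mean of 368 ± 59.3 (SD, n = 5), with a log2 difference of 0.43 (limma p = 0.020; exact permutation p = 0.030). Acad8, which acts on the valine route, was at 504 ± 62.4 (SD, n = 6) and 604 ± 51.0 (SD, n = 5), with a log2 difference of 0.27 (limma p = 0.0496; exact permutation p = 0.024). Mcee, the epimerase between propionyl-CoA carboxylase and Mut, was at 476 ± 65.6 (SD, n = 6) and 668 ± 204 (SD, n = 5), with a log2 difference of 0.44 (limma p = 0.040; exact permutation p = 0.063). These 3 calls varied with the mice. Only 1 of the 24 genes was called higher without any 1 of WT replicates 1, 3 and 4 or pKO replicates 1, 3 and 4, and 0 with the replicate number as a block.

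The 2 genes that were lower sit at other points of the pathway. Bcat1, the cytosolic transaminase, ranged from 83.1 to 149 in WT mice and was at 32.6, 58.4, 80.4, 86.5 and 105 in pKO mice, so 3 pKO mice were below every WT mouse. Its log2 difference was -0.77 (SE 0.26; limma p = 0.011, adjusted p = 0.40; exact permutation p = 0.013). Btd, biotinidase, which recycles the biotin that both carboxylases carry, was at 52.7 ± 16.8 (SD, n = 6) and 31.5 ± 12.7 (SD, n = 5), with a log2 difference of -0.75 (limma p = 0.016, adjusted p = 0.43; exact permutation p = 0.063). The number called lower was 1 without WT replicate 2 or WT replicate 5. Auh, the hydratase that follows methylcrotonyl-CoA carboxylase on the leucine route, had a log2 difference of -0.69 that missed the threshold (limma p = 0.072; exact permutation p = 0.11), with pKO replicate 1 at 121 against 375 to 536 in the other pKO mice.

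No call was made for the remaining genes of the wider list. The mitochondrial carrier Slc25a44 had a log2 difference of 0.39 (limma p = 0.12; exact permutation p = 0.19). The kinase Bckdk and the phosphatase Ppm1k, which set the activity of the ketoacid complex, had differences of -0.14 (limma p = 0.48; exact permutation p = 0.51) and -0.06 (limma p = 0.83; exact permutation p = 0.84). Dld, the E3 component that the complex shares with others, was at 0.39 (limma p = 0.30; exact permutation p = 0.38). Mccc2, the second subunit of methylcrotonyl-CoA carboxylase, was at 0.06 (limma p = 0.72; exact permutation p = 0.76). Klf15, a transcription factor known to act on amino acid breakdown genes, was at -0.50 (limma p = 0.17; exact permutation p = 0.30), with single pKO mice from 53.0 to 276. Of the amino acid transporters of the plasma membrane, Slc7a5, Slc3a2, Slc7a8 and Slc43a1, 0 of 4 were called, and Slc7a5 had a mean of at most 13.8 normalised tags.

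**Figure D2:**
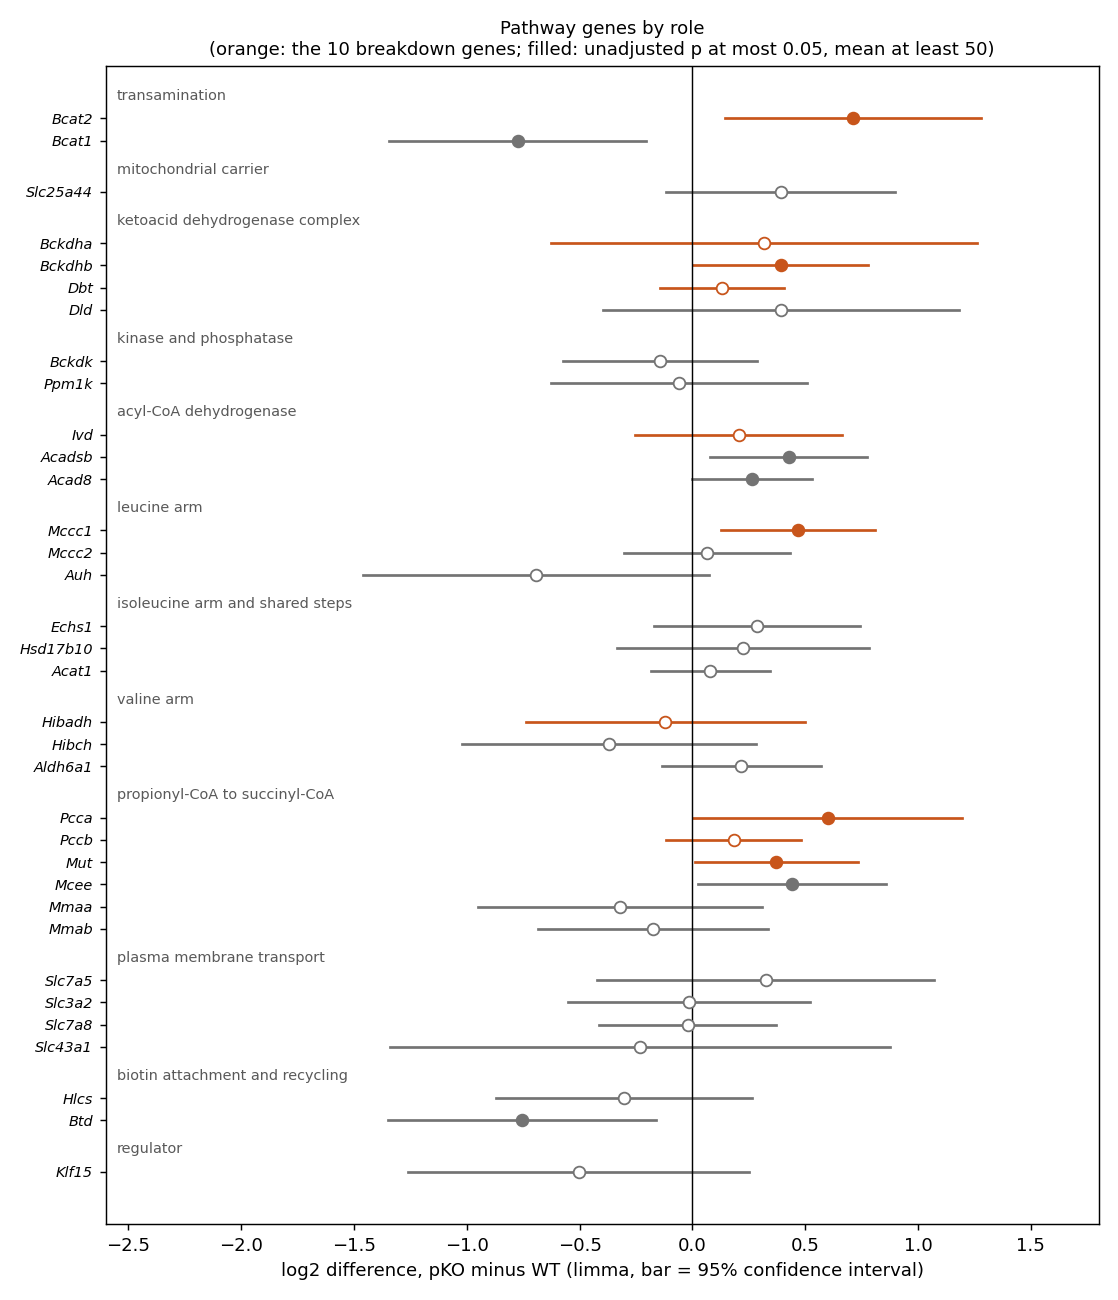
Log2 difference, pKO minus WT, of 34 genes of the pathway (horizontal axis) grouped by role, with bars for the limma 95% confidence interval; orange marks the 10 breakdown genes and filled points an unadjusted p of at most 0.05. In orange, 9 of 10 points lie to the right of 0 and 5 are filled, while 3 grey points are filled on the right and 2 on the left.

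Partner genes were also compared as ratios within each mouse, taken as (value A + 1)/(value B + 1), so that library scaling cancels except for the added 1. There were 6 ratios, and p-values are from exact two-sided permutation tests over all splits of the mice, adjusted over the 6 ratios. The ratio of mitochondrial to cytosolic transaminase, Bcat2 to Bcat1, ran from 2.51 to 5.84 in WT mice. With the added 1 it was, in pKO replicates 1 to 5, 29.5, 9.85, 7.54, 11.05 and 8.35, so every pKO mouse was above every WT mouse. The geometric means were 4.12 and 11.5, a log2 difference of 1.48 (SE 0.42; exact permutation p = 0.0022, the smallest that 6 against 5 mice allow; adjusted p = 0.013). It was 1.14 to 1.64 with any 1 mouse left out. This ratio rests on the same values as the Bcat2 and Bcat1 differences above and is not separate evidence for either. The pairs come from lists chosen with earlier results of these data known, which the adjustment over 6 ratios does not cover. How often other gene pairs separate the genotypes was not tested.

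The subunit ratios did not pass the test. Pcca to Pccb had geometric means of 1.16 in WT and 1.55 in pKO mice (log2 difference 0.42, SE 0.26; exact permutation p = 0.11, adjusted p = 0.26). It was 1.05 and 1.06 in pKO replicates 1 and 2, and 1.77 to 2.25 in the other 3 pKO mice. Mccc1 to Mccc2 was 1.06 in WT and 1.40 in pKO mice (log2 difference 0.40, SE 0.24; exact permutation p = 0.13, adjusted p = 0.26). Bckdhb to Bckdha was 2.74 and 2.88 (log2 difference 0.07, SE 0.58; exact permutation p = 0.91), and within each genotype this ratio varied over a wide range, from 1.41 to 6.99 in WT and from 1.67 to 8.55 in pKO mice. Dbt to Bckdha differed by -0.19 (SE 0.51; exact permutation p = 0.75) and Bckdk to Ppm1k by -0.09 (SE 0.43; exact permutation p = 0.84). In these last 3 ratios the standard error was larger than the difference.

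**Figure D3:**
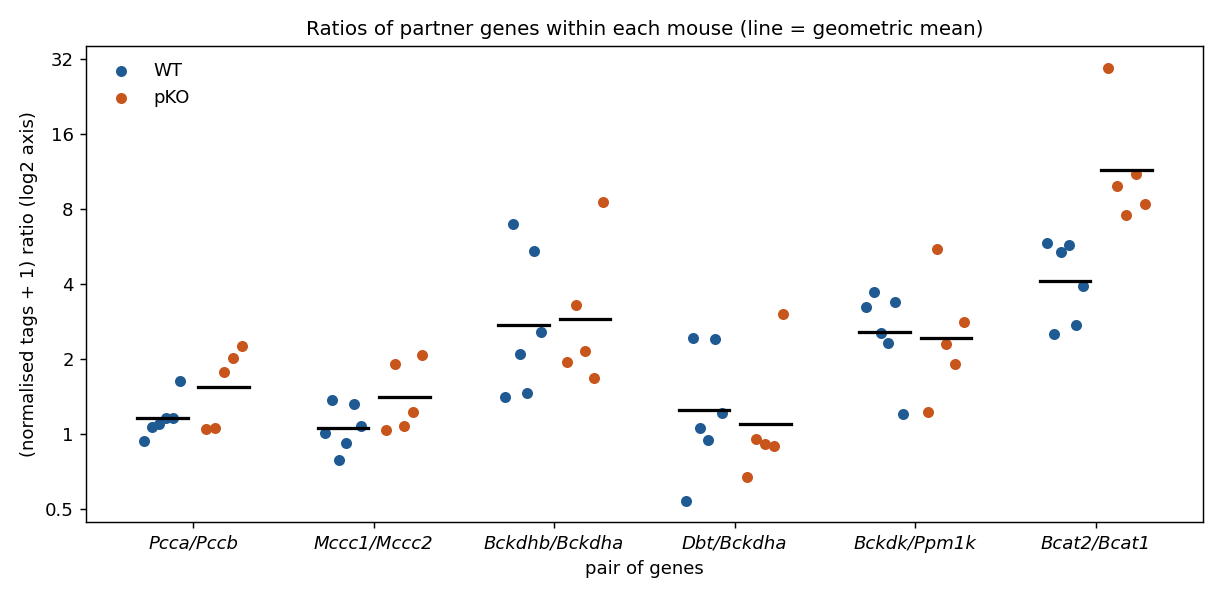
Ratio of 2 partner genes in each mouse, with 1 added to the normalised tags of each (vertical axis, log2 scale), with WT in blue, pKO in orange and the geometric mean as a line. For Bcat2/Bcat1 the pKO mice, at 7.54 to 29.5, lie above all WT mice, at 2.51 to 5.84, and in the other 5 pairs the genotypes overlap.

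Within a genotype the order of the mice differed between breakdown genes. Bcat2 and Bckdha both had WT replicates 2 and 5 as their 2 lowest WT mice, whereas Bckdhb, Mccc1 and Pccb had the same 2 animals as their 2 highest. This pair was chosen after its values were seen. Over the 9906 genes these 2 mice were the 2 lowest in 10.8% and the 2 highest in 10.4%, and over the 34 pathway genes they were the 2 lowest in 4 and the 2 highest in 11. Among pKO mice, Pcca and Pccb had replicates 1 and 2 as their lowest, and Bckdhb and Mccc1 had the same 2 as their highest. This pair, too, was chosen after its values were seen. These 2 mice were the lowest pair in 19.1% and the highest pair in 20.1% of the 9906 genes. The 2 of 10 breakdown genes with each pattern are near those shares. Relative to the WT mean, all 10 genes were higher in pKO replicate 3, 8 in replicates 1 and 4, and 7 in replicates 2 and 5. In single WT mice 4 to 8 of the 10 lay above that mean. The share of all genes above it in each mouse was not computed.

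**Figure D4:**
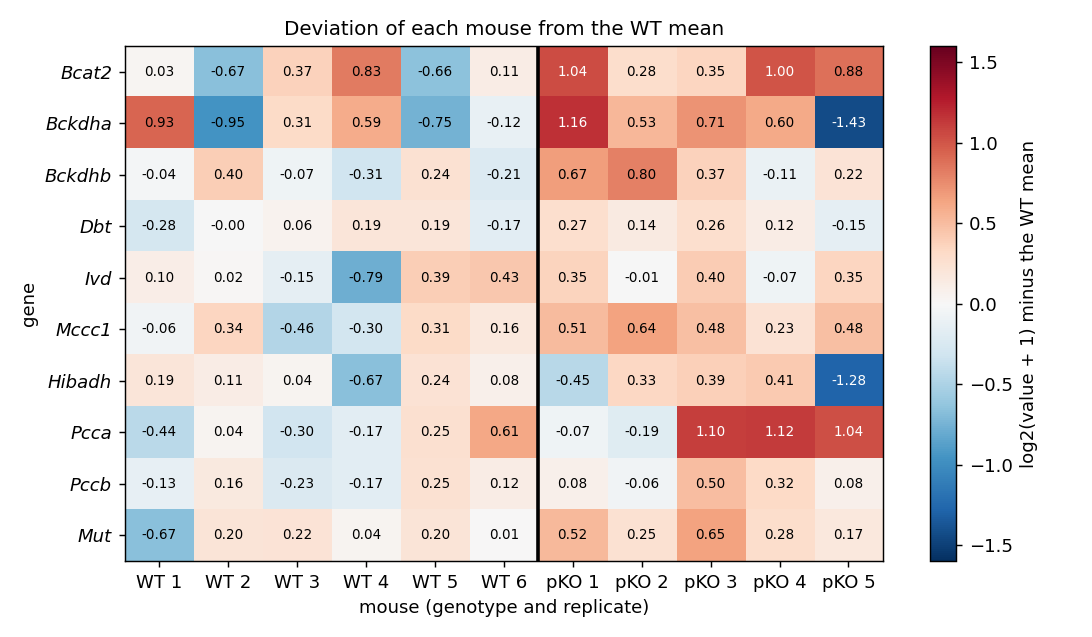
Each cell gives log2(value + 1) of a breakdown gene (rows) in a mouse (columns) minus the mean of the 6 WT mice, with red for higher and blue for lower. In pKO replicate 3 all 10 genes are red, while pKO replicate 5 holds the deepest blue cells, Bckdha at -1.43 and Hibadh at -1.28.

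Marker genes of the cells in eWAT were followed beside these results. The shares called over the 9906 genes, 4.85% higher and 5.77% lower, are the background for the counts below. For adipocytes 2 of 10 markers were called higher in pKO mice, Pnpla2 and Slc2a4, and 0 lower. The summed adipocyte markers overlapped, with WT mice at 698718 to 1103294 normalised tags and pKO mice at 753507 to 1113835 (exact permutation p = 0.57). Most of that sum was Fabp4, at 655817 in WT and 698530 in pKO mice on average, so it says little about the other markers. Log2 differences were positive in 8 of the 10 and negative in 2, with Lep at -0.49 and Pnpla2 at 0.55. Macrophage markers went the other way, with 3 of 9 called lower (Itgam, Itgax and Ctss) and 0 higher. Their sums were 6824 to 11702 in WT and 6048 to 7992 in pKO mice (exact permutation p = 0.039). Ctss was the largest part of that sum, at 4334 in WT and 2857 in pKO mice on average. Log2 differences were negative in 8 of the 9 and positive in 1, Cd163, at 0.23 (exact permutation p = 0.62). Among the 8, Emr1 was at -0.013 (exact permutation p = 0.95). The 6 stromal markers summed to 47649 to 58599 in WT and 58850 to 68868 in pKO mice, without overlap (exact permutation p = 0.0087). Among single genes, ranges were apart in 1.43% of the 9906. Dcn alone of the 6 was called, and it was the largest part of the sum. Log2 differences were positive in 3 of the 6 and negative in 3, with Pi16 at -0.58, Col1a1 at -0.03 and Pdgfra at -0.00077. Mesothelial markers were called higher in 2 of 5 (Krt19 and Msln), with sums of 692 to 958 and 789 to 1598 (exact permutation p = 0.017). Endothelial markers were called higher in 1 of 5, and T and B cell markers in 0 of 7. Skeletal muscle markers were called in 0 of the 2 measured. Of these, Acta1 was at 219 in pKO replicate 2, against 41.5 to 66.1 in WT and 16.4 to 59.0 in the other pKO mice. The brown adipocyte marker Ucp1 was not among the genes measured. None of the markers measured was at 0 in every library. The part of these cells in the breakdown genes was not tested.

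Since the breakdown enzymes are mitochondrial, 8 genes of general mitochondrial content were set beside them. Only Hspd1, a mitochondrial chaperone, was called higher, with a log2 difference of 0.58, and 0 were called lower. Citrate synthase, Cs, had a difference of 0.05. The content genes summed to between 19804 and 26430 normalised tags in WT mice and between 22141 and 27745 in pKO mice (exact permutation p = 0.43). Cs was the largest part of that sum, at 12971 in WT and 13446 in pKO mice on average.

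The 5 genes outside the pathway whose profile over the 11 mice was closest to the mean profile of the 10 breakdown genes were Fry, Sncg, Sdhc, 9130011J15Rik and Efna5. Likeness was the mean absolute difference of centred log2 values, which was 0.063 to 0.086 for these 5 among 9875 genes ranked. The breakdown genes themselves lay farther from their own mean profile, from 0.13 for Pccb and 0.16 for Dbt to 0.62 for Bckdha. Because the 5 were picked as the closest of 9875, this comparison was set by the choice and is not a result. Sdhc, a subunit of succinate dehydrogenase, had a WT mean of 2299.8 ± 215 (SD, n = 6) and a pKO mean of 2728 ± 295 (SD, n = 5), with a log2 difference of 0.24. The mean profile was itself higher on average in pKO mice, so genes picked by likeness to it share that direction. Their differences are not separate results.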

How the data were processed

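SAGE libraries were sequenced by the authors on the SOLiD system and tags were aligned with modified SOLiD SAGE software. The submitters' processing notes name mm10 and edgeR 3.2.3. The annotation is not given in the sources used here. The deposited value per gene is a signal: tags divided by a library size factor. All values (100%) were whole tags (tolerance 0.01) once divided by the value of 1 tag.

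Log2(value + 1) was tested with limma 3.58.1 (trend) over 15453 genes in 6 WT and 5 pKO mice, with Benjamini-Hochberg adjustment. Single values and ratios had exact two-sided permutation tests. Alternatives were edgeR 4.0.16, DESeq2 1.42.0 and limma-voom on recovered counts, other scalings, pseudocounts and filters, a replicate block and each mouse left out. The fit was tested on simulated data in which every gene and both genotypes had the same setting for spread between mice. Unequal spread was therefore not covered by it. Named genes were the 10 genes, their partners, pathway genes called or listed by role, Mest, and the 5 most alike in profile. A gene of the wider list is not reported here. Members and lists were chosen with earlier results of these data known.

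No 2 libraries of a group agreed within sampling noise (chi-square per degree of freedom at least 17.7). It was 17.7 to 49.1 for pairs of WT libraries and 36.8 to 99.8 for pairs of pKO libraries. Correlations of deviations between mice sharing a replicate number were -0.092 to 0.14. These values show no pairing by number. Whether such mice shared a litter, cage or batch was not tested.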

Additional observations from a re-analysis of the deposited data

Results flagged for a closer look

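In 3 of 30 groups of single-gene values a mouse stood apart by Dixon's ratio of its gap to the range, where chance gives about 1.5, and all 3 were WT mice. Hibadh was at 1332 normalised tags in WT replicate 4 against 2192 to 2506 in the other WT mice. Mut was at 1335 in WT replicate 1 against 2136 to 2472 in the others. Ppm1k, the phosphatase of the ketoacid complex, was at 129 in WT replicate 6 against 53.9 to 81.6 in the others. No technical or biological reading of these values was tested.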

How the results depend on the processing

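Each result was recomputed under 23 alternatives or fewer. The number of breakdown genes called higher, 5 in the report, was 2 without the variance trend and 2 to 5 with single mice left out. The number called lower and the number at the adjusted threshold were 0 in each. Of the other 24 pathway genes, 3 were called higher in the report, 1 without the trend, 0 with the replicate block and 1 to 3 with single mice left out; 2 were called lower, and 1 to 3 with single mice left out. Hibadh was -0.25 to 0.17 with single mice left out, and reversed without pKO replicate 5. With single mice left out the log2 ratio difference of Bckdhb to Bckdha was -0.32 to 0.34, of Dbt to Bckdha -0.55 to 0.0042 and of Bckdk to Ppm1k -0.38 to 0.16. With the replicate block, which drops WT replicate 6, that of Bcat2 to Bcat1 was 1.47 at an exact sign-flip p of 0.0625, the smallest that 5 pairs allow. Mut was not called with the block, at a log2 difference of 0.37 as in the report, nor with WT replicate 6 left out and no block. What mice with the same number shared was not tested: 1 of 5 same-number correlations was above 0.1, and 1 WT mouse correlated best with its own number. Pcca lost its call with scaling by total tags or TMM, the filter of 10 tags, the robust prior and no trend, Bckdhb with no trend, and Mut with no trend and edgeR. The cause of these shifts was not tested. Over all genes, adjusted calls were 1 higher and 4 lower in the main fit and with edgeR, 58 and 63 with DESeq2, 0 and 1 with the block, and 26 and 65 without pKO replicate 2. The 10 genes had at least 58.3 normalised tags in every library; counting error and spread between mice were not separated.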
